A study of Mus musculus with 8 samples.

Results

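Homing and egress receptors place a developing T cell within the thymus and later let it leave. The genes described here are Ccr7, Ccr9, Cxcr4, Klf2, S1pr1, Itgb7 and Itgae, chosen by name, with every probe set that the platform annotation mapped to one of these symbols alone. This gave 10 probe sets for 7 genes, of 12422 probe sets on the array after the control probe sets were removed. S1pr1, Itgb7 and Itgae each had 2 probe sets, and the other 4 genes had 1 each. Total RNA of mouse double positive thymocytes was hybridised to 8 arrays in 4 groups of 2: a control, an overnight control, Valpha2 and Vbeta5. The titles name the groups, the series title says that the T cell receptor (TCR) was engaged with antibodies, and Valpha2 and Vbeta5 are names of variable segments of the TCR alpha and beta chains. The labels used here state no mouse strain, genotype, age, antibody clone, dose or time. They also do not say whether the 2 arrays of a group came from separate animals or cultures, so that every p-value reflects the spread of these arrays alone, which may be technical.

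Double positive thymocytes, named for having CD4 together with CD8 on their surface, reside in the thymic cortex. There the chemokine receptors Cxcr4 and Ccr9 respond to Cxcl12 and Ccl25, which stromal cells make. A thymocyte whose TCR signals successfully is known to gain Ccr7, which guides it to the medulla, and later the transcription factor Klf2, which raises S1pr1, the sphingosine 1-phosphate receptor needed to exit into the blood. Itgb7 encodes an integrin beta chain that pairs with the alpha chain encoded by Itgae, also known as CD103, to bind E-cadherin, or with the Itga4 chain to bind Madcam1.

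Of the 7 genes, RefSeq promoters (GRCm38.p6) were matched for 4: Ccr9, Cxcr4, Klf2 and Itgb7. The 250 bases upstream of the annotated start are shown for Ccr9, the gene with the smallest p-value among those tested here, and for Klf2, the regulator at the head of the egress programme. Both run 5′ to 3′ on the strand of the gene, at chr9:123766961-123767210 on the plus strand for Ccr9 and chr8:72318812-72319061 on the plus strand for Klf2. Capitals mark the E box CANNTG, the letters bound by E proteins, in Ccr9. In Klf2 they mark the MEF2 pattern as searched here, CTA, then any 4 bases, then TAG. It allows any base in the middle, so not every match need be a site that Mef2 factors bind.
Ccr9: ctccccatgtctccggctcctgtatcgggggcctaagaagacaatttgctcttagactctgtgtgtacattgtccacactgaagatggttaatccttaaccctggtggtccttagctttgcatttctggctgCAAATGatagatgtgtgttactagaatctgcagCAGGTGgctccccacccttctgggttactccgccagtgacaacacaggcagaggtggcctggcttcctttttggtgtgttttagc
Klf2: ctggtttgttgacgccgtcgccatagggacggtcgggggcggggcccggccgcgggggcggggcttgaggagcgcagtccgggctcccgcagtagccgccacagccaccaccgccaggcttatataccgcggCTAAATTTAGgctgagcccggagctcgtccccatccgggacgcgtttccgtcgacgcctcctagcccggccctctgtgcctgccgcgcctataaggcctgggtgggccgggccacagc
Both motifs read the same on either strand and were searched on both, and no match of one overlapped the other. The Ccr9 window held 2 E boxes, the Itgb7 window 1, and the Cxcr4 and Klf2 windows 0. Of 32851 RefSeq promoter windows of the same length, 66.2% held an E box and 3.2% the MEF2 pattern as searched. That pattern occurred 1 time in the Klf2 window and 0 times in those of Ccr9, Cxcr4 and Itgb7. A match describes letters only and shows no binding.

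The deposited values are linear signals, and log2(signal + 17) was used for every test, where the offset of 17 is the 20th percentile of the positive signals. The 33.3% of probe sets with the lowest mean signal were not tested. Of the 10 probe sets 5 were tested, 1 each for Ccr7, Ccr9, Cxcr4, S1pr1 and Itgb7. The other 5, which are both of Itgae, the only one of Klf2 and the second ones of S1pr1 and Itgb7, fell in that untested share. Signals of different probe sets are not comparable, so levels are compared only across arrays.

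The arrays carried the markers of the labelled cells. Of 14 listed double positive markers 12 had a probe set and all 12 were tested, and their summed signal lay between 22960 and 76230, lowest on the 2 Vbeta5 arrays. Within that list Cd4, Cd8a, Cd8b1, Rag1, Rag2, Dntt, Ptcra and Thy1 had a lower mean with Vbeta5 than in each other group, while Cd3d, Cd3e, Cd3g and Cd1d1 did not. The sum for B cells ran from 2787 to 5420, and Ighm alone read 2207 to 4490, while Cd79a read 19.4 to 170.9 and Cd79b 106.3 to 427.9. The source of this signal was not tested. For 7 of the 8 marker lists of other cell types the sum was highest on overnight control array 1. On that array dim signals were raised as a whole, with a 20th percentile of 26.4 against 12.5 to 21.9 on the other 7, a median of 110.35 against 73.8 to 91.6, and 12.2% of probe sets under 17 against 15.8% to 24.7%. For fibroblasts and endothelium, the latter a cell type that uses S1pr1 and Klf2, all 8 markers were measured. Their sum was 1838 on that array against 613 to 1260 on the other 7, and Col1a2, a collagen gene of fibroblasts, made up 903. Of the endothelial genes, Pecam1 read 393.1, Kdr 116.3 and Vwf 27.6 there, each the highest of the 8 arrays. Cdh5 and Tek read 10.3 and 9.5 and were not at their highest. None of the measured markers was at 0 on every array. The log2 ratio of 3′ to 5′ Gapdh control signal, a sign of RNA quality, reached 1.72 for the first Valpha2 array, 0.95 for the first of the overnight control and 0.48 for the first of Vbeta5, while the remaining 5 arrays lay between -0.28 and -0.09. The part of these differences in the results below was not tested. In bulk RNA, fewer cells of a type and less RNA per cell cannot be told apart.

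No homing or egress gene passed the test in any of the 6 comparisons between groups. By limma with Benjamini-Hochberg adjustment over the 8281 probe sets tested, 0 of 30 pairs of a tested probe set and a comparison were called, 2 had an unadjusted p under 0.05, and the smallest adjusted p was 0.33. Among all tested probe sets 0.616% were called for Vbeta5 against overnight control, 0.278% for Vbeta5 against Valpha2 and 0% for Valpha2 against overnight control. The shares called against the control were 0.217% for overnight control, 0.399% for Valpha2 and 1.64% for Vbeta5. An unadjusted p under 0.05 belonged to 9.04% of all tested probe sets for overnight control against control, 1.59% for Valpha2 against overnight control, 8.16% for Vbeta5 against Valpha2 and 7.39% for Valpha2 against control, and to 0 of the 5 homing and egress probe sets in these 4 comparisons. The half-width of the 95% interval of a log2 difference had a median of 0.94 over the 30 pairs, which is the precision that 2 arrays a group gave for these genes.

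**Figure D1:**
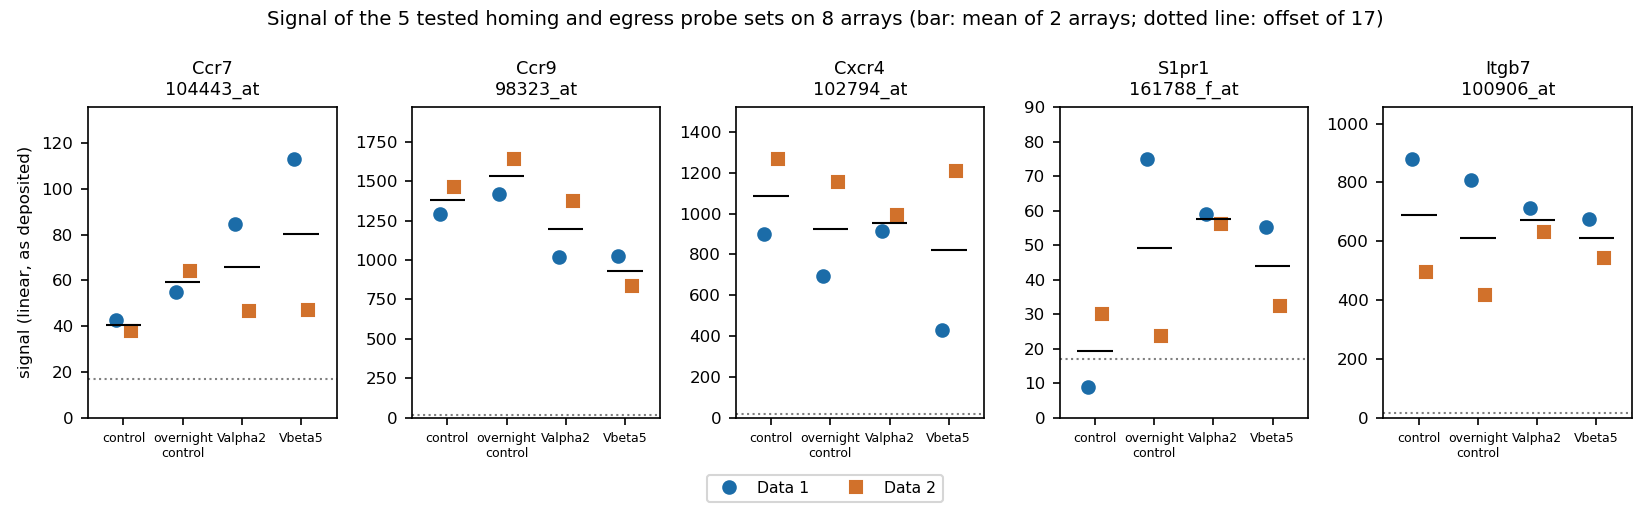
Linear signal (vertical axis, as deposited) of the 5 tested probe sets on each of the 8 arrays by group; circles are arrays titled Data 1, squares Data 2, bars the mean of the 2 arrays and the dotted line the offset of 17. Ccr9 lay at 1025.6 and 832.1 on the Vbeta5 arrays, under both overnight control arrays, while Cxcr4 and Itgb7 differed as much between the Data numbers as between the groups.

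Ccr9, the receptor for Ccl25 (probe set 98323_at), had the smallest p-values of these genes. Its signal was 1293.6 and 1463 on the control arrays, 1421.1 and 1641.3 on the overnight control arrays, 1015.9 and 1376.6 on the Valpha2 arrays, and 1025.6 and 832.1 on the Vbeta5 arrays. Both Vbeta5 arrays were under all 4 control and overnight control arrays, and they overlapped with Valpha2. Against the overnight control the mean signal with Vbeta5 was 929 ± 137 against 1531 ± 156 (SD, n = 2), a log2 difference of -0.71 ± 0.24 (SE) or 1.64-fold, with an unadjusted p of 0.0119 and a limma adjusted p of 0.33. The 95% interval ran from -1.24 to -0.19 before adjustment. For Ccr9 the difference between Vbeta5 and control was -0.57 ± 0.24 (limma adjusted p = 0.397).

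Unadjusted p-values under 0.05 belonged to 8.43% of all tested probe sets for Vbeta5 against overnight control and to 11.1% for Vbeta5 against control, and Ccr9 was the 1 of 5 in each. Both Vbeta5 arrays lay below both overnight control arrays in 15.2% of all tested probe sets, and below both control arrays in 19.0%. Ccr9 kept its sign in both comparisons under each processing setting tried, with values from -0.86 to -0.57 against the overnight control and from -0.76 to -0.42 against the control. Many of these settings cannot move a log2 difference. The sign was tested only by rescaling, another offset or a floor, and the loss of a compared array. Without the 3 arrays of raised 3′ to 5′ ratio, a setting chosen after seeing the data, the difference from the overnight control was -0.97 (limma adjusted p = 0.175). The summed signal of double positive markers was also lowest on the Vbeta5 arrays, at 40090 and 22960 against 58570 or more on the others, although its members went both ways.

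With Valpha2 the Ccr9 difference from the overnight control was -0.36 ± 0.24 (SE; limma adjusted p = 1), with a 95% interval from -0.88 to 0.16, and its arrays lay below both overnight control arrays, as in 10.2% of all tested probe sets. Directly compared, Vbeta5 and Valpha2 differed in Ccr9 by -0.35 ± 0.24 (limma adjusted p = 0.786; interval from -0.87 to 0.17), and their arrays overlapped. Leaving out Valpha2 array 1 or array 2 gave -0.57 or -0.13 for this difference and -0.15 or -0.58 for Valpha2 against overnight control, and leaving out Vbeta5 array 2 gave -0.20 for the former. From high to low the group means of Ccr9 ran overnight control, control, Valpha2 and Vbeta5, and no neighbours in that order differed beyond their spread (adjusted p from 0.786 to 0.91).

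Cxcr4, the receptor for Cxcl12 (102794_at), had signals of 898.8 and 1268 in the control, 694.7 and 1154.4 in the overnight control, 915.5 and 993.5 with Valpha2, and 429.3 and 1209.3 with Vbeta5. The groups overlapped in every comparison, and the Vbeta5 pair held both the lowest value of all and one of the highest. The 2 Vbeta5 arrays were 1.46 apart on the log2 scale, while the group means covered 0.55. The order of group means was control, Valpha2, overnight control and Vbeta5, with adjusted p-values between neighbours from 0.975 to 1. No direction is given for Cxcr4 between groups, since it turned in each comparison when an array was left out or another setting was used.

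Itgb7, the integrin beta chain, was measured well above the offset by probe set 100906_at. Its signals were 880.5 and 496.8 in the control, 807.4 and 417.9 in the overnight control, 711.8 and 632.3 with Valpha2, and 677 and 543.5 with Vbeta5. All 4 groups overlapped. The group means of Itgb7 covered only 0.2 on the log2 scale, against up to 0.92 between 2 arrays of a group, and no neighbours differed (adjusted p from 0.935 to 1). The second Itgb7 probe set, 162193_f_at, read 65.6 on overnight control array 1 and between 5.8 and 25.3 on the other 7, and was not tested.

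The differences of Cxcr4 and Itgb7 ran with the Data number in the titles, whose meaning is not stated. Cxcr4 was higher on the array numbered 2 in 4 of 4 groups, by 1.09 to 2.82 times, and Itgb7 was higher on the array numbered 1 in 4 of 4 groups, by 1.13 to 1.93 times. Among all tested probe sets, 12.2% were higher on number 2 in every group and 11.8% on number 1. In a fit with the number as a term, added after seeing the data, Cxcr4 differed by 0.70 ± 0.20 (SE) for number 2 over number 1 and Itgb7 by -0.55 ± 0.18. Neither passed (limma adjusted p = 0.128 and 0.167), and 0.652% of all probe sets did. Because 3 of the 4 arrays numbered 1 had the raised 3′ to 5′ ratios, the number and RNA quality cannot be told apart outside the control group. In the control, where both arrays had low ratios, Cxcr4 was 1.41 times higher on array 2 and Itgb7 1.77 times higher on array 1. This rests on 1 array of each number, and the part of RNA quality was not tested.

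The genes of the medullary and egress programme were dim. Ccr7 (104443_at), the receptor for Ccl19 and Ccl21, read 42.8 and 38.1 in the control, 55.1 and 64 in the overnight control, 84.8 and 46.7 with Valpha2, and 113.2 and 47.1 with Vbeta5. The control arrays were the 2 lowest, and the other 3 groups overlapped with each other. Against the control the log2 difference was 0.67 ± 0.50 (SE) with Vbeta5, 0.49 ± 0.50 with Valpha2 and 0.41 ± 0.50 in the overnight control, with limma adjusted p of 0.698, 0.906 and 0.812. The Ccr7 value with Vbeta5 was 0.16 without Vbeta5 array 1 and 1.18 without array 2, and that with Valpha2 was 0.15 without Valpha2 array 1 and 0.83 without array 2. In the overnight control it was 0.08 with quantile normalization and 0.19 at a common median.

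In Ccr7 these 3 differences share the control arrays and so are not independent. The upper ends of their 95% intervals were 1.79, 1.61 and 1.53 on the log2 scale. Arrays wholly above the control were common, in 29.3% of all probe sets with Vbeta5, 25.8% with Valpha2 and 21.6% in the overnight control. Neighbouring group means of Ccr7, from Vbeta5 over Valpha2 and overnight control to control, had adjusted p-values from 0.812 to 1. Ccr7 was 2.4 times higher on Vbeta5 array 1 than on array 2. Dendritic cells can carry Ccr7 too. The 6 markers of dendritic cells and class II summed to 992.6 and 1123 on the Vbeta5 arrays, 1257 on overnight control array 1 and 440.1 to 595.9 on the other 5. Among them H2-Eb1, Cd74, H2-Ab1 and H2-Aa had their highest group mean with Vbeta5, H2-Aa at signals of only 10 to 24.6. Flt3 was highest in the overnight control and Itgax with Valpha2, with Itgax means from 82.1 to 88.8. The part of such cells in the Ccr7 values was not tested.

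S1pr1, the egress receptor, was read by 2 probe sets. Probe set 161788_f_at had signals of 8.8 and 30 in the control, 75 and 23.6 in the overnight control, 59.1 and 56.2 with Valpha2, and 55.2 and 32.5 with Vbeta5. The arrays of Valpha2 and of Vbeta5 lay above both control arrays, as in 25.8% and 29.3% of all tested probe sets. Those of the overnight control did not. The Vbeta5 arrays were below both Valpha2 arrays, as in 18.5% of all tested probe sets. The log2 difference from control was 1.10 ± 0.60 (SE) with Valpha2, 0.78 ± 0.60 with Vbeta5 and 0.81 ± 0.60 in the overnight control, with limma adjusted p of 0.758, 0.703 and 0.69. The S1pr1 signal on control array 1 was under the offset, so these values depend on it, and over the settings tried they ranged from 0.22 to 1.53.

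The second S1pr1 probe set, 101953_at, read between 2.1 and 7.9 on 7 arrays and 24.4 on Valpha2 array 1, where the 3′ to 5′ Gapdh ratio was greatest. It was under the offset on 7 of 8 arrays and was not tested. Its mean signals were 16.15 with Valpha2, 6.2 in the overnight control, 4.1 with Vbeta5 and 2.75 in the control. That is the order of 161788_f_at too. The highest signal of 161788_f_at, 75, was on overnight control array 1, where dim signals as a whole and the sum of fibroblast and endothelium markers were also highest; their part in it was not tested. Order of means for S1pr1 by 161788_f_at was Valpha2, overnight control, Vbeta5 and control, and neighbours had adjusted p-values from 0.703 to 1.

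Klf2, the regulator that raises S1pr1 in mature thymocytes, read 15.8 and 13.9 in the control, 26.3 and 16.2 in the overnight control, 25.8 and 13.1 with Valpha2, and 14.3 and 39.1 with Vbeta5 (96109_at). Signals of Klf2 were under the offset on 5 of 8 arrays, and the highest and one of the lowest belonged to the same group. Itgae, the CD103 chain, was under the offset on 8 of 8 arrays by 161730_f_at, with signals from 2.4 to 16.5. By 93961_at Itgae read 68.8 and 19.4 on the Valpha2 arrays and 4.2 to 14.4 on the other 6. In a fit with no filter on dim probe sets, 0 of 30 pairs of a dim probe set and a comparison were called by limma, 6 had an unadjusted p under 0.05, and the smallest adjusted p was 0.507, for Itgae 93961_at between Vbeta5 and Valpha2. Of the 6, 2 were in Valpha2 against overnight control, 2 in Valpha2 against control, 1 in Vbeta5 against overnight control and 1 in Vbeta5 against Valpha2. In the fit with no filter an unadjusted p under 0.05 belonged to 2.10%, 6.16%, 6.95% and 6.81% of all 12422 probe sets in these comparisons, and to 7.35% for overnight control against control and 8.67% for Vbeta5 against control. The higher of the 2 Valpha2 readings of Itgae came from the array with the 3′ to 5′ ratio of 1.72. Detection calls were not used here, so it is not shown whether these dim genes were expressed.

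**Figure D2:**
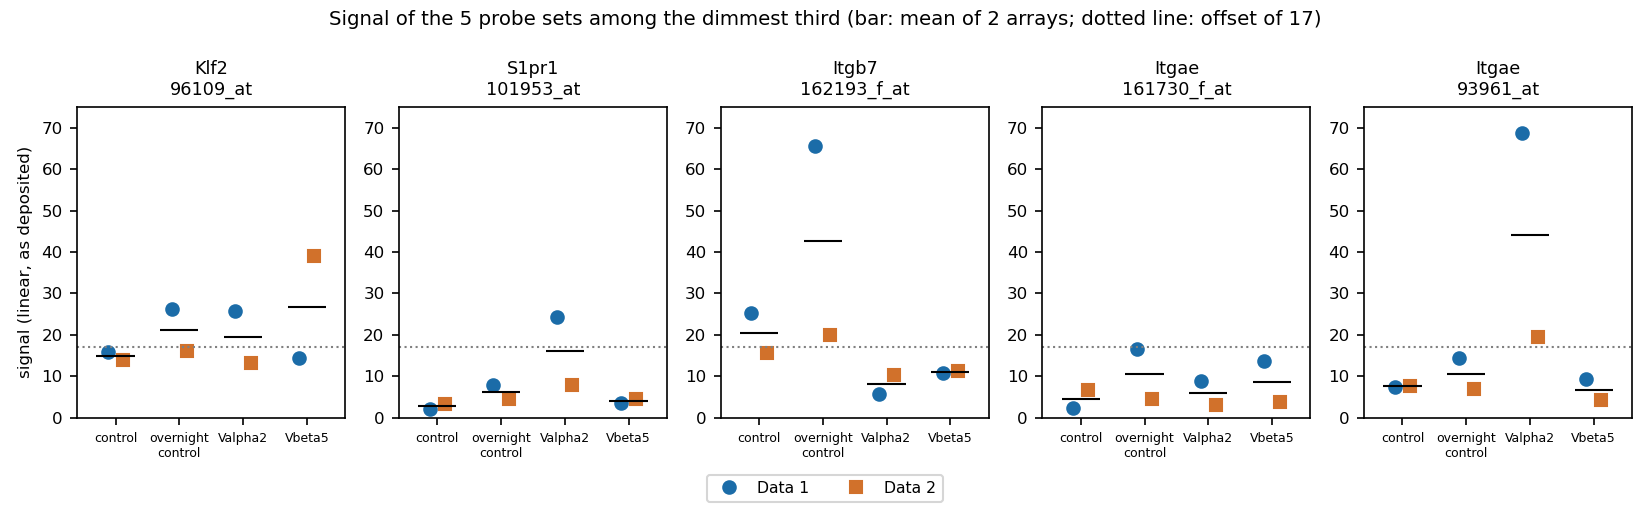
Linear signal (vertical axis, as deposited, the same scale in each panel) of the 5 probe sets among the dimmest 33.3% on each array by group; circles are Data 1, squares Data 2, bars the mean of the 2 arrays and the dotted line the offset of 17. Most points lie at or under the line, and single arrays such as Valpha2 array 1 for Itgae at 68.8 stand above it.

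**Figure D3:**
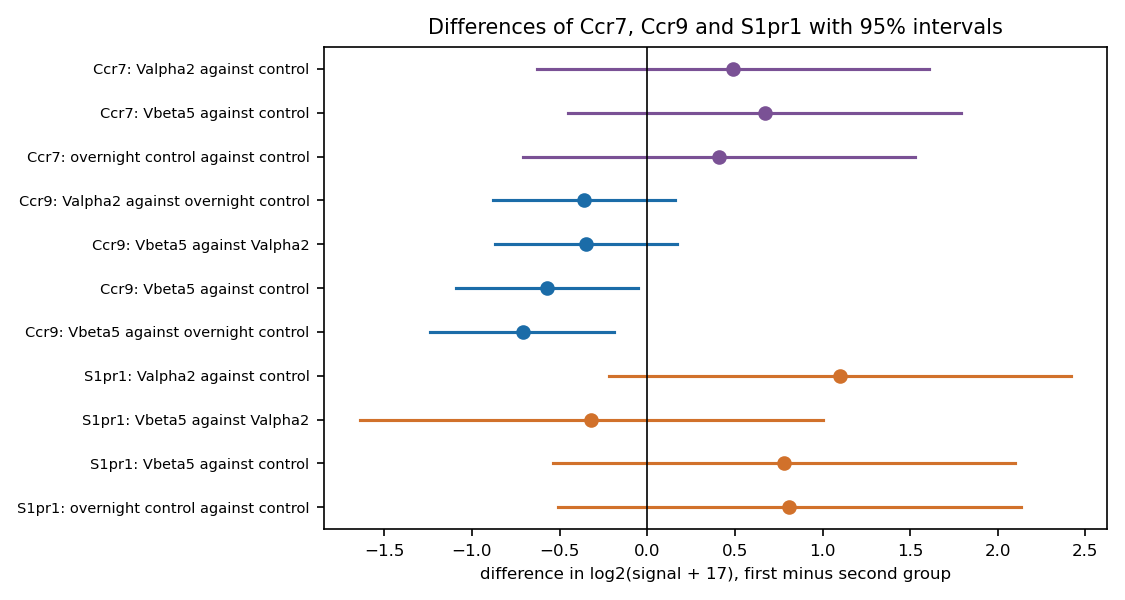
Differences in log2(signal + 17) between groups (horizontal axis, first minus second group) for the 11 pairs of probe set and comparison whose sign held under each processing setting tried that retained the probe set. Points are limma estimates and lines 95% intervals before adjustment. The intervals of Ccr9 for Vbeta5 against overnight control and against control lie under 0, and neither passed after adjustment (adjusted p = 0.33 and 0.397).

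Of the 30 pairs of a tested probe set and a comparison, 11 kept their sign under each processing setting tried, as the plot of differences shows, and 19 did not. The 11 pairs comprised 4 of Ccr9, 3 of Ccr7 and 4 of S1pr1, and 0 of Cxcr4 or Itgb7. The remaining one of these, S1pr1 for Vbeta5 against Valpha2, was -0.32 ± 0.60 (SE; limma adjusted p = 0.945). How many of all tested probe sets keep their sign was not determined here, so the count of 11 has no baseline.

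The patterns most like those of the tested genes were sought by the root mean square difference of centred log2 values over the 8 arrays, so that every pair of patterns shares the same arrays and their RNA quality. Closest to Ccr9 were Dhrs4, at 0.0913, and Smarca2, at 0.102, against a median of 0.469 over those compared. For Cxcr4 they were Zfp91 (0.105) and Bet1 (0.13; median 0.589). Zfp91 read 553.8 on Vbeta5 array 1 and 1529.4 on Vbeta5 array 2, the same split as in Cxcr4. Closest to Itgb7 were Nxn (0.152) and Fbln1 (0.156), to Ccr7 Ghrh (0.139) and Son (0.16), and to S1pr1 Pgk1 (0.156) and Gpr33 (0.177). These are likenesses of pattern over 8 arrays only.

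Genes that act with these receptors were taken from 6 lists of 146 entries, of which 117 were on the array and 94 were tested at their brightest probe set. For Vbeta5 against overnight control 1 of the 94 rose and 0 fell, and for Vbeta5 against control 0 rose and 1 fell. In the other 4 comparisons 0 of 94 were called by limma. Rates over all probe sets were 0.350% higher and 0.266% lower for Vbeta5 against overnight control, and 0.628% and 1.01% for Vbeta5 against control.

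Rgs10, a regulator that shortens G protein signalling below chemokine receptors, was the gene that rose. Its signal (160629_at) was 1542.5 and 1301.3 in the control, 903.1 and 800.8 in the overnight control, 1084.5 and 892.2 with Valpha2, and 2347.6 and 2162 with Vbeta5. By this probe set both Vbeta5 arrays were above all 6 others. Values of a further Rgs10 probe set, 103384_at, are not given here. The rise of Rgs10 over the overnight control was 1.39 ± 0.22 (SE) on the log2 scale or 2.62-fold (limma adjusted p = 0.0186), and a second probe set, 161765_f_at, differed by 1.28 (adjusted p = 0.0863). The call ended when any 1 of the 4 arrays compared was left out, with values of 1.47 (adjusted p = 0.0696) without overnight control array 1, 1.30 (0.092) without overnight control array 2, 1.33 (0.104) without Vbeta5 array 1 and 1.45 (0.177) without Vbeta5 array 2. The overnight control was also lower than the control in Rgs10, at 852 ± 72.3 against 1422 ± 171 (SD, n = 2), and against the control the difference with Vbeta5 was 0.66 ± 0.22 (SE) or 1.58-fold and did not pass (limma adjusted p = 0.23). Against Valpha2 it was 1.18 ± 0.22 (limma adjusted p = 0.0661, and 0.0142 with the Data number as a block).

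Plxnd1, a plexin known to direct the migration of selected thymocytes in mice, was the gene that fell. Its signal (97967_at) was 3003.6 and 2024.5 in the control, 1417.5 and 2384.7 in the overnight control, 1988.9 and 2085 with Valpha2, and 864 and 365.5 with Vbeta5. Both Vbeta5 arrays were under all 6 others. Against the control the fall of Plxnd1 was -2.10 ± 0.39 (SE) on the log2 scale (limma adjusted p = 0.0232), and against the overnight control the difference was -1.68 ± 0.39 without passing (adjusted p = 0.102). Leaving out control array 1 (-1.81, adjusted p = 0.267), control array 2 (-2.38, 0.128) or Vbeta5 array 2 (-1.50, 0.146) ended the call against the control.

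**Figure D4:**
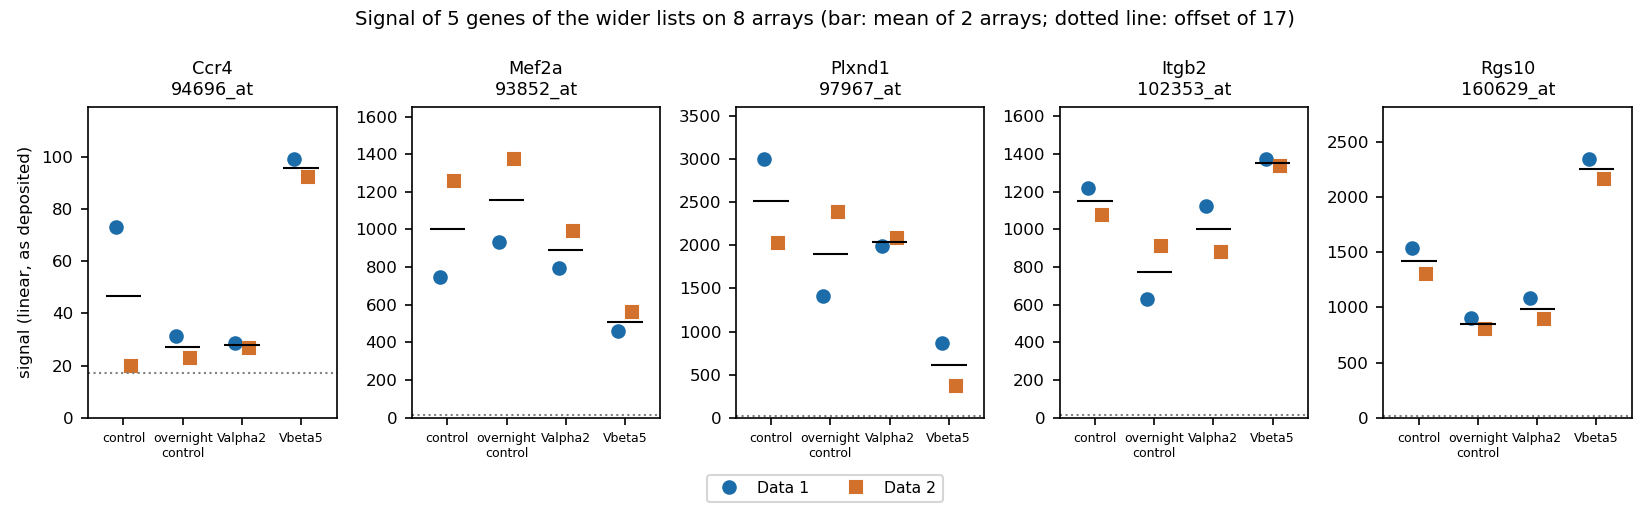
Linear signal (vertical axis, as deposited) of Ccr4, Mef2a, Plxnd1, Itgb2 and Rgs10 on each array by group; circles are Data 1, squares Data 2, bars the mean of the 2 arrays and the dotted line the offset of 17. Rgs10 was highest and Plxnd1 lowest on the 2 Vbeta5 arrays.

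Among other chemokine receptors and their kin, 8 of 16 on the array were tested and 0 passed for Vbeta5 against overnight control, with a median log2 difference of -0.09 against -0.01 over all genes tested. The smallest p-value was that of Ccr4, a receptor known in mouse to appear early after positive selection. It read 99.2 and 92.4 with Vbeta5, 31.4 and 23 in the overnight control, 28.6 and 26.9 with Valpha2, and 73.2 and 20 in the control. The Ccr4 difference from the overnight control was 1.36 ± 0.55 (SE; limma adjusted p = 0.514). Ccr2 (0.82) and Ackr4 (-0.71), an atypical receptor that takes up Ccl25, did not pass either (adjusted p = 0.883 and 0.945).

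The ligand list had 4 genes tested of 6 on the array, with 0 passing and a median of -0.19. Vcam1, a ligand of Itga4 integrins, differed by -0.76 (limma adjusted p = 0.843). Madcam1 and Cxcl12 did not pass. Madcam1 is the endothelial ligand of the Itga4 and Itgb7 pair. Its brightest probe set, 102680_g_at, differed by 0.30 (limma adjusted p = 0.993), its arrays overlapped and its sign did not hold under each setting. A second Madcam1 probe set, 102679_at, differed by 1.12 (adjusted p = 0.595). By the latter both Vbeta5 arrays lay above both overnight control arrays, as in 15.8% of all tested probe sets. Of the sphingosine 1-phosphate pathway 10 of 12 genes were tested, with 0 passing and a median of -0.18. Sgpp1, a phosphatase that removes sphingosine 1-phosphate, differed by -0.80 (adjusted p = 0.537), and Arrb1, a beta-arrestin, by -0.38 (adjusted p = 0.885), with another Arrb1 probe set at 0.30. S1pr4 read from 182 to 436.2 over the 8 arrays and did not pass.

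Regulators of Klf2 and the genes they govern with it numbered 20 tested of 22 on the array. For Vbeta5 against overnight control 0 passed, and the median was -0.27 against -0.01 over all genes tested. Mef2a, of the family behind the MEF2 pattern, read 459.4 and 560.5 with Vbeta5 and 933.4 and 1375.6 in the overnight control. It read 746.2 and 1258.7 in the control and 793.7 and 992.7 with Valpha2. Its difference was -1.13 ± 0.30 (SE; limma adjusted p = 0.189). The kinase gene Akt2 differed by 0.90 (adjusted p = 0.51) and the repressor gene Klf3 by -0.75 (adjusted p = 0.538), with a second Klf3 probe set at -0.92. Il7r, the interleukin 7 receptor that returns on mature thymocytes, read 56.7 and 37 in the control, 128.2 and 57.1 in the overnight control, 65.5 and 85.4 with Valpha2, and 100.5 and 128.3 with Vbeta5, and it did not pass.

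Of the partner and adhesion genes 26 of 34 were tested, with 0 passing for Vbeta5 against overnight control and a median of -0.05. The smallest p-values after Plxnd1 were those of Itgb2, the beta chain of LFA-1, at 0.82 (limma adjusted p = 0.262), and of Rap1a, a small GTPase that activates integrins, at 0.96 (adjusted p = 0.344; a second probe set at 0.68). Itga4, the alpha partner of Itgb7, had 3 probe sets, of which 2 were tested. By 95292_at Itga4 read 71.4 and 94.3 in the control, 262.8 and 132.9 in the overnight control, 265.6 and 158.2 with Valpha2, and 245.3 and 313.2 with Vbeta5. The control arrays of Itga4 were below the other 6 by this probe set and by 102655_at. By the untested 102656_at they were not, at 22.1 and 11.9 against 3.2 to 59.6 on the other 6. Vbeta5 arrays lay above both control arrays in 29.3% of all tested probe sets. No Itga4 difference passed in the fit of all 8 arrays. The largest was that of Vbeta5 over control, 1.82 ± 0.41 (SE; limma adjusted p = 0.0595) by 102655_at and 1.57 ± 0.40 (adjusted p = 0.0961) by 95292_at. Both Itga4 probe sets passed in that comparison with the Data number as a block (adjusted p = 0.0325 and 0.0491), in the fit of the 4 arrays compared (0.0365 and 0.0323) and without overnight control array 1 (0.0285 and 0.0462) or array 2 (0.0258 and 0.0415). Over all settings tried the adjusted p reached 0.471 and 0.567. Chemotactic signalling and motility genes had 26 of 27 tested, with Rgs10 past the threshold and a median of -0.01. The plot of the lists shows that their medians lay between -0.27 and -0.01.

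**Figure D5:**
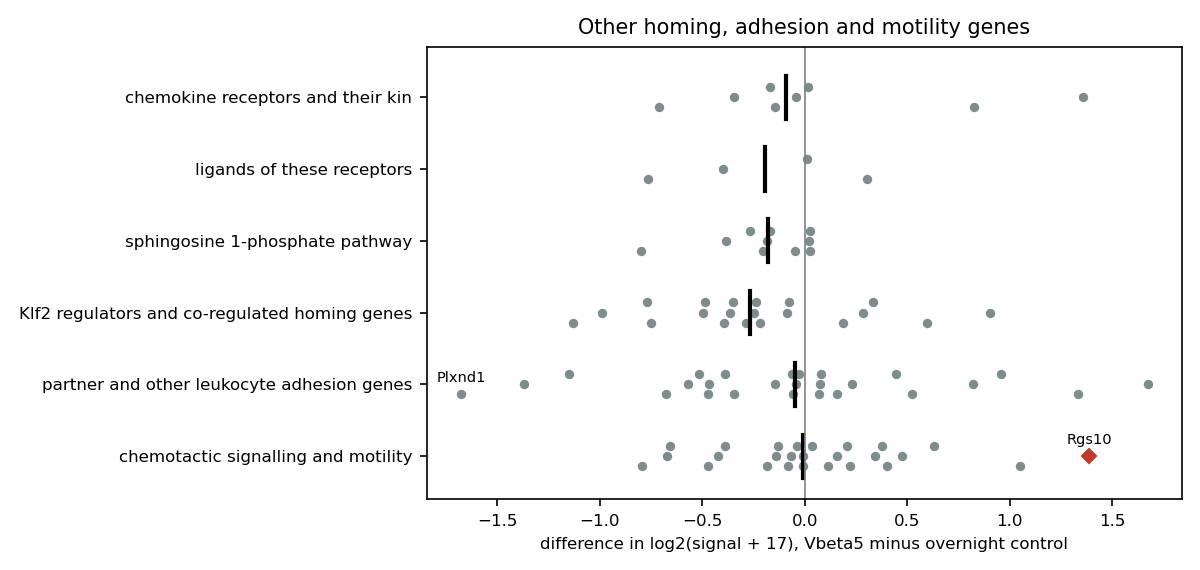
Difference in log2(signal + 17) between Vbeta5 and overnight control (horizontal axis) for each tested gene of 6 lists of homing, adhesion and motility genes; grey circles did not pass, the red diamond passed (limma adjusted p under 0.05), and black bars are list medians. Rgs10 is the 1 gene past the threshold, and the medians lie between -0.27 and -0.01.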

How the data were processed

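The authors deposited 1 table of array intensity for 12488 probe sets on 8 arrays, with normalized values per the labels; the sources used here give neither the software nor a scaling target. The values are linear with 1 decimal, and the mean trimmed by 2% at each end was 250.14 to 250.16 on every array. After 66 control probe sets were removed, log2(signal + 17) was taken and the dimmest 33.3% by mean over all arrays were left out, which left 8281. Probe sets were named with the annotation of the platform, whose symbols were brought up to date by gene identifier in RefSeq (GRCm38.p6); 10833 probe sets had 1 symbol, 396 several and 1193 none. limma 3.58.1 in R 4.3.3 fitted 1 mean per group to the 8 arrays, with eBayes and a variance trend, 4 residual degrees of freedom, and two-sided Benjamini-Hochberg adjustment within each of 6 comparisons at 0.05. The procedure was tested on simulated data. No exact permutation test was run, because 2 arrays against 2 cannot go below p = 0.333. The number of arrays limits the precision.

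The genes, the lists and the tests were chosen with earlier results of these data known. The log2 difference of a homing or egress gene is printed where it passed or kept its sign under each setting listed here that retained its probe set. Otherwise its signals are given. List genes are named where they passed, or else by the 3 smallest p-values for Vbeta5 against overnight control; Itga4 and Il7r are named as the partner of Itgb7 and a marker of mature thymocytes. Other settings tried were scaling to a common median or to common quantiles, no filter or a filter on the dimmest 50%, a floor or an offset of 8.5 in place of 17, a fit without the variance trend, the Data number as a block, only the 4 arrays compared, and each array left out in turn. Filters, the variance trend, the block, the fit of 4 arrays and arrays left out of other groups change p-values, not log2 differences.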

Additional observations from a re-analysis of the deposited data

How the results depend on the processing

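The count of homing and egress probe sets past the threshold was 0 in each of the 6 comparisons under all 17 settings listed above and without the 3 arrays of highest 3′ to 5′ ratio, a setting added after seeing the data. With the Data number as a replicate block it was also 0, while the count over all probe sets went from 51 to 125 for Vbeta5 against overnight control, from 23 to 90 for Vbeta5 against Valpha2, from 18 to 107 for overnight control against control, from 33 to 90 for Valpha2 against control and from 136 to 242 for Vbeta5 against control, and stayed at 0 for Valpha2 against overnight control. Deviations of same-numbered arrays correlated between groups at 0.104 to 0.347 across probe sets. With only 2 numbers this does not establish pairs. The counts over all probe sets otherwise varied widely. Over the arrays left out in turn they ran from 0 to 54 for Vbeta5 against overnight control (0 without Vbeta5 array 2), from 0 to 31 for Vbeta5 against Valpha2, from 0 to 123 for overnight control against control, from 0 to 52 for Valpha2 against control, from 0 to 186 for Vbeta5 against control and from 0 to 1 for Valpha2 against overnight control. Without the variance trend they were 0, except 22 for Vbeta5 against control. In the fit of the 4 arrays compared they were 29, 0, 35, 56, 215 and 0 in the same order. A common median gave 29, 0, 10, 11, 98 and 0, with 18 higher and 11 lower against 29 and 22 for Vbeta5 against overnight control, and 18 higher and 80 lower against 52 and 84 for Vbeta5 against control. That setting moved the median of all log2 differences by -0.23 for overnight control, -0.14 for Valpha2 and -0.20 for Vbeta5, each against the control. With no filter the count for Valpha2 against control was 10, and quantile normalization gave 19 there and 10 for overnight control against control. The Rgs10 call also ended at a common median (adjusted p = 0.0783), without the trend (0.148) and in the fit of 4 arrays (0.0647), and the Plxnd1 call against control ended without the trend (0.108). Plxnd1 against the overnight control passed with the block (adjusted p = 0.0415), without Vbeta5 array 1 (0.0364) and without the 3 arrays (0.001), and so did Mef2a with the block (0.0242) and the second Rgs10 probe set with the block (0.0418) and without the 3 arrays (0.0133). For Vbeta5 against Valpha2, Plxnd1 (-1.82, adjusted p = 0.099) passed with the block (0.0326), without Vbeta5 array 1 (0.0417) and without the 3 arrays (0.0068). For Vbeta5 against control, Mef2a passed with the block (0.0434), and both Itga4 probe sets passed under the settings given above and without the 3 arrays (0.0099 and 0.0165). Ccr2 turned to -0.32 without the 3 arrays. The causes were not tested.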
